A study of Homo sapiens with 6 samples.

Results

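The BCL2 family decides at the mitochondrion whether a stressed cell lives or dies, and 10 of its genes are described here in lung squamous cell carcinoma cells given a control guide or a guide against MLST8. They are the survival genes BCL2, BCL2L1 and MCL1, the effector genes BAX and BAK1, and the BH3-only genes BCL2L11, BBC3, PMAIP1, BID and BMF. The genes were chosen by symbol, before any filter, from the 17448 genes listed. All 10 were listed and all 10 passed the filter on low counts, as 12951 genes did in all.

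The cells were HCC2814, an established human LUSC line, grown in DMEM with 10% serum. WT cells carried a non-targeting guide (sgCtrl) and MLST8-KO cells a guide against MLST8, the shared mTORC1 and mTORC2 subunit whose loss the study used to disable mTORC2. Both groups went through lentiviral CRISPR infection and antibiotic selection. The selected populations, which were not described as single clones for this line, were sequenced after polyA selection in 3 samples each. The MLST8-KO cells are thus a model of guide-driven loss in a selected population, and some transcript from the targeted gene can remain. For blots of this line the paper lists 3 numbered control and 3 numbered MLST8 guide samples. Its RNA sequencing methods do not state whether the sequenced samples came from separate guides, separate infections or repeat experiments.

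Survival proteins of the family hold the effector proteins BAX and BAK in check, and BH3-only proteins, which are made or activated under stress, bind the survival proteins or the effectors and shift the balance towards pores in the outer mitochondrial membrane. Cytochrome c then leaves the mitochondrion and starts the caspase cascade. AKT, which mTORC2 phosphorylates, is known to restrain several steps of this pathway, among them FOXO factors that can activate BCL2L11 and BBC3, and MCL1 protein is known for its short life.

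All 10 proteins share the BH3 stretch through which members of the family bind each other, so the coding sequence of that stretch is shown as what the survival, effector and BH3-only genes have in common. In the sequences below, read 5′ to 3′ on the coding strand from GENCODE transcripts on GRCh38, capitals mark the 6 codons of the BH3 core, which were found as a leucine codon, 3 codons of any kind, a glycine or alanine codon and an aspartate codon. Lower case marks the 4 codons on each side.
BCL2: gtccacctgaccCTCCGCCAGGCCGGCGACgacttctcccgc
BCL2L1: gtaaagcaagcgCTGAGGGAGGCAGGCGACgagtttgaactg
MCL1: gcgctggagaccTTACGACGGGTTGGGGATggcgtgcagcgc
BAX: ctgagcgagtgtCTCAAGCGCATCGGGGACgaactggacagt
BAK1: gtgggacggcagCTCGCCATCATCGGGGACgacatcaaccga
BCL2L11: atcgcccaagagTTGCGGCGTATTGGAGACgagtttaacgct
BBC3: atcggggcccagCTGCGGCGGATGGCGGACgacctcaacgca
PMAIP1: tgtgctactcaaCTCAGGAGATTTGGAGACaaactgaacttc
BID: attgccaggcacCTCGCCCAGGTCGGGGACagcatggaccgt
BMF: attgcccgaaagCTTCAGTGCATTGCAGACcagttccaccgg

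Each coding sequence held exactly 1 match to this pattern. The pattern is short: 24.8% of the 19550 protein-coding genes searched held it, and 11.6% of the 7630 genes whose coding sequence was of the members' own length range of 54 to 350 codons. Over the 45 pairs of members the 42 bases were 31.0% to 64.3% identical, with a median of 45.2%. The closest pairs, each with 27 of 42 bases identical, were BAK1 with BID, BCL2L11 with BBC3 and BCL2L11 with BMF. The first of these joins an effector and a BH3-only gene, the others BH3-only genes. MCL1 and PMAIP1 were among the most distant with 13 of 42.

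The stretches of the survival genes lie at chr18:63318349-63318390 in exon 2 of BCL2, chr20:31721922-31721963 in exon 2 of BCL2L1 and chr1:150578865-150578906 in exon 1 of MCL1, all on the minus strand. Those of the effectors lie at chr19:48955775-48955816 in exon 3 of BAX on the plus strand and chr6:33575387-33575428 in exon 4 of BAK1 on the minus strand. Among the BH3-only genes, BCL2L11 (chr2:111150091-111150132, exon 4) and PMAIP1 (chr18:59902661-59902702, exon 2) are on the plus strand. BBC3 (chr19:47226579-47226620, exon 3), BID (chr22:17739415-17739456, exon 4) and BMF (chr15:40104195-40104236, exon 4) are on the minus strand.

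Estimated counts summed to between 14381673 and 15744154 per sample. Levels within a gene are given in CPM, the counts scaled to library size with TMM, and differences as log2 fold changes of MLST8-KO against WT from edgeR's quasi-likelihood fit over all genes tested, where a gene was called at a Benjamini-Hochberg adjusted p-value under 0.05. MLST8 itself was at 58.0, 56.9 and 60.7 CPM in the WT samples and at 25.5, 38.9 and 25.7 CPM in the MLST8-KO samples, a fall of 48.7% (log2 fold change -0.96, adjusted p = 0.00339 by edgeR). Over all genes tested, 2116 genes were higher and 2030 lower in MLST8-KO cells, so 51.0% of the calls were higher. With upper quartile scaling that share was 62.0%, and with limma on log2(TPM + 1) or log2(TPM + 0.1) it was 71.0% or 70.9%. Squamous and epithelial markers were abundant in every sample, with a summed TPM of 12203 to 19399 in WT and 24526 to 27375 in MLST8-KO samples, and 8 of 10 were higher in MLST8-KO cells. Immune markers summed to at most 0.87 TPM and fibroblast and endothelial markers to 10.8 to 13.4 TPM. Lung adenocarcinoma and alveolar markers were low in both groups, with a summed TPM of 1.43 to 3.39 in WT and 7.68 to 9.63 in MLST8-KO samples. The sums did not overlap, but NKX2-1 supplied nearly all of them, at 7.53 to 9.63 TPM in MLST8-KO samples. NAPSA, SFTPB and SFTPA1 were at 0.21 TPM or less in every sample. NKX2-1, the only marker of that list tested, was higher (log2 fold change 1.81, adjusted p = 0.00281 by edgeR). MLST8-KO replicate 1 stood apart: its 8 liver markers summed to 240.5 TPM, against 3.25 to 4.51 TPM in the other MLST8-KO samples and 0.62 to 6.17 TPM in WT samples. For the members and the death pathway genes called, each call lost without that sample is therefore stated. For some pathway genes that fit appears only within a range of adjusted p-values over several fits.

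Of the 10 members, 2 were higher in MLST8-KO cells (BAX and BMF), 3 were lower (MCL1, BAK1 and BCL2L1) and 5 were not called. Over all genes tested the fit called 32.0%, of which 16.3% of genes tested were higher and 15.7% lower, so 5 calls among 10 members lie above that background while the number of members is small. The median log2 fold change of the members was -0.18, against 0.0045 over all genes tested. In CPM the groups did not overlap for 7 members, with MLST8-KO samples above in 2 and below in 5, against 49.1% of all genes tested. Without MLST8-KO replicate 1 the counts were 0 higher and 1 lower, MCL1, in a fit that called 979 genes higher and 850 lower in all. In that fit the share of members called no longer lay above the share of all genes.

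Other transcripts moved with the groups. The summed TPM of squamous markers was higher in every MLST8-KO sample than in any WT sample. The same held for NKX2-1, which made up nearly all of the low alveolar sum. Liver transcripts were high in MLST8-KO replicate 1. The part of any of these in the members' differences was not tested. In bulk RNA, fewer cells with a transcript and less transcript per cell cannot be told apart.

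**Figure D1:**
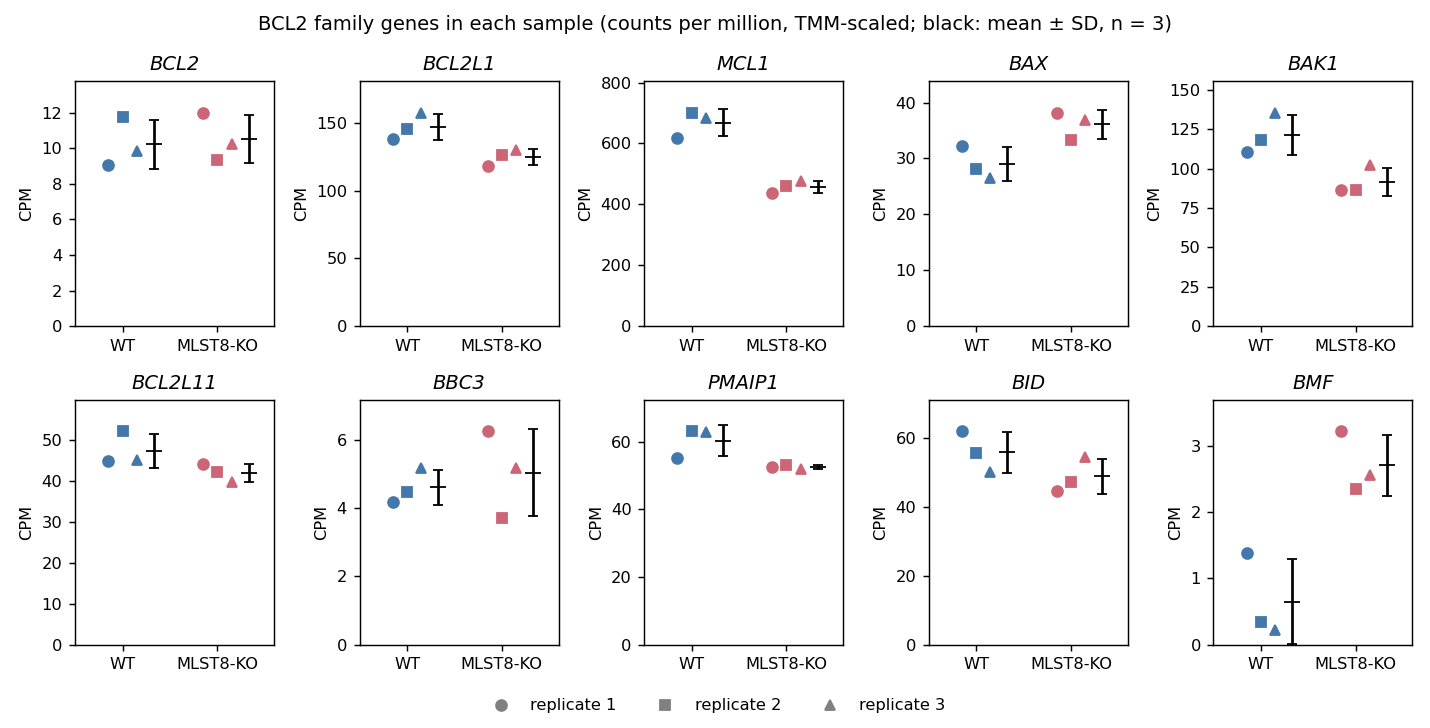
Level of each of the 10 genes in every sample, in CPM on a linear axis from 0, with WT samples in blue, MLST8-KO samples in red, marker shape giving the replicate number and black bars giving mean ± SD of 3 samples. The MCL1 samples form 2 separate groups, at 617 to 700.1 CPM in WT and 437 to 477 CPM in MLST8-KO cells, while BCL2, BBC3 and BID overlap.

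MCL1, the survival gene with the most transcript in these cells, fell by 31.4% in MLST8-KO cells. It was at 617, 700.1 and 685 CPM in WT samples and at 437, 459 and 477 CPM in MLST8-KO samples. Every MLST8-KO sample was below every WT sample, and the gap between the groups was wider than the range within either. This was a log2 fold change of -0.54 ± 0.08 (SE, n = 3 each; 95% interval -0.72 to -0.37; adjusted p = 0.00307 by edgeR). MCL1 (Entrez gene 4170, chr1:150574551-150579738) was called under all 14 alternatives, and without MLST8-KO replicate 1 its log2 fold change was -0.51 (adjusted p = 0.0224 by edgeR). With 6770 to 10168 estimated counts per sample it was the most deeply covered member.

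BCL2L1, whose long form BCL-XL is a survival protein and whose short form promotes death, fell by 15.03% at gene level, and isoforms were not measured apart. Its level was 138, 146 and 158 CPM in WT samples and 119, 126 and 130.5 CPM in MLST8-KO samples. The groups did not overlap, but the lowest WT sample was close to the highest MLST8-KO sample. The log2 fold change was -0.24 ± 0.08 (SE, n = 3 each; 95% interval -0.42 to -0.05) with an adjusted p of 0.0487 by edgeR, just inside the threshold. The call was lost when any sample except WT replicate 1 was left out (adjusted p = 0.0673 to 0.18 by edgeR), and under upper quartile scaling, without the filter and with limma on TPM. Without MLST8-KO replicate 1 the log2 fold change was -0.20 (adjusted p = 0.18 by edgeR). An antisense gene, ABALON, shares 34.3% of the 50-base stretches of the BCL2L1 transcript on the opposite strand. It is not listed in the table under that name, and because strandedness is not given in the sources used here, reads from the pair cannot be told apart.

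BCL2, the founding member of the family, was a minor survival transcript in this line. It was at 9.09, 11.8 and 9.88 CPM in WT samples and 12, 9.33 and 10.2 CPM in MLST8-KO samples. The highest and the second lowest value both came from MLST8-KO cells, so the groups overlapped fully. The log2 fold change was 0.038 ± 0.15 (SE, n = 3 each; 95% interval -0.30 to 0.37; adjusted p = 0.863 by edgeR), and its sign turned without WT replicate 1 (-0.044) or MLST8-KO replicate 1 (-0.066).

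The 2 effector genes moved in opposite directions. BAX, a cytosolic protein that inserts into the outer mitochondrial membrane on activation, rose by 24.7% in MLST8-KO cells. Its values were 32.3, 28.1 and 26.4 CPM in WT samples and 38.1, 33.2 and 36.9 CPM in MLST8-KO samples. The lowest MLST8-KO sample was only slightly above the highest WT sample. In the fit BAX differed by a log2 fold change of 0.32 ± 0.10 (SE, n = 3 each; 95% interval 0.09 to 0.55; adjusted p = 0.0404 by edgeR). The direction was the same under all 14 alternatives, but the call was lost with DESeq2 (0.31, adjusted p = 0.0501) and when any sample except WT replicate 1 was left out (0.26 to 0.37, adjusted p = 0.0544 to 0.149 by edgeR). Without MLST8-KO replicate 1 it was 0.28 (adjusted p = 0.149 by edgeR).

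BAK1, whose product BAK resides in the outer mitochondrial membrane, fell by 24.6%. It was at 111, 118 and 135 CPM in WT samples and at 86.2, 86.3 and 102 CPM in MLST8-KO samples. No MLST8-KO sample reached the lowest WT sample. In the fit the log2 fold change was -0.41 ± 0.10 (SE, n = 3 each; 95% interval -0.63 to -0.18; adjusted p = 0.0149 by edgeR). It was -0.37 without MLST8-KO replicate 1 (adjusted p = 0.0693) and -0.37 without MLST8-KO replicate 2 (adjusted p = 0.0643), both no longer called by edgeR. The processed pseudogene BAK1P1 shares 13.3% of the 50-base stretches of the BAK1 transcript on the same strand and GGNBP1 shares 2.25% on the opposite strand. Neither is listed in the table under that name, so the value of BAK1 is uncertain to the extent that such reads were assigned to it.

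BMF, a BH3-only protein known to respond to loss of attachment and to cytoskeletal stress, had the largest log2 fold change of the 10 members and the fewest counts. The estimated counts were 21, 5 and 3 in WT samples and 50, 38 and 40 in MLST8-KO samples, or 1.39, 0.344 and 0.216 CPM against 3.23, 2.35 and 2.56 CPM. All MLST8-KO samples were above all WT samples, and the WT samples differed more among themselves than the MLST8-KO samples did. The fitted fold was 4.05 (95% interval 1.95 to 8.41), a log2 fold change of 2.02 ± 0.48 (SE, n = 3 each; adjusted p = 0.012 by edgeR). WT replicate 1 decided much of its size: without that sample the log2 fold change was 3.23. The call was lost without WT replicate 2 (1.71, adjusted p = 0.0559 by edgeR) and without MLST8-KO replicate 1 (1.88, adjusted p = 0.0505 by edgeR). The antisense gene BMF-AS1, not listed in the table under that name, shares 7.93% of the BMF stretches on the opposite strand.

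The remaining BH3-only genes were not called. BCL2L11, which encodes BIM, a BH3-only protein that binds all survival members, was at 44.7, 52.0 and 44.9 CPM in WT samples and 44, 42.0 and 39.6 CPM in MLST8-KO samples. These groups touched but did not overlap in CPM, and they overlapped in TPM. The log2 fold change was -0.17 ± 0.09 (SE, n = 3 each; 95% interval -0.38 to 0.03; adjusted p = 0.169 by edgeR); as a fold, the interval runs from 0.77 to 1.02. MIR4435-2HG, not listed under that name, shares 6.59% of the BCL2L11 stretches on the opposite strand.

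PMAIP1, which encodes NOXA, the BH3-only protein that binds MCL1 most selectively, was at 55.1, 63.0 and 62.8 CPM in WT samples and 52.6, 53.2 and 51.9 CPM in MLST8-KO samples. The MLST8-KO samples lay within a narrow band below all WT samples in CPM, while in TPM the groups overlapped. The log2 fold change was -0.20 ± 0.08 (SE, n = 3 each; 95% interval -0.38 to -0.01; adjusted p = 0.0914 by edgeR). Without WT replicate 1 the gene passed the threshold at -0.26 (adjusted p = 0.029 by edgeR).

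BID, which links death receptors to the mitochondrion once caspase-8 has cut it, was at 61.9, 55.8 and 50 CPM in WT samples and 44.6, 47.3 and 54.6 CPM in MLST8-KO samples. The highest MLST8-KO sample exceeded the lowest WT sample, and the log2 fold change was -0.20 ± 0.11 (SE, n = 3 each; 95% interval -0.43 to 0.04; adjusted p = 0.181 by edgeR). BBC3, which encodes PUMA, was low, with 60 to 97 estimated counts per sample. It was at 4.18, 4.48 and 5.19 CPM in WT samples and 6.26, 3.71 and 5.19 CPM in MLST8-KO samples, so both extremes were MLST8-KO samples. Its log2 fold change was 0.13 ± 0.21 (SE, n = 3 each; 95% interval -0.34 to 0.60; adjusted p = 0.665 by edgeR) and -0.0535 without MLST8-KO replicate 1.

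**Figure D2:**
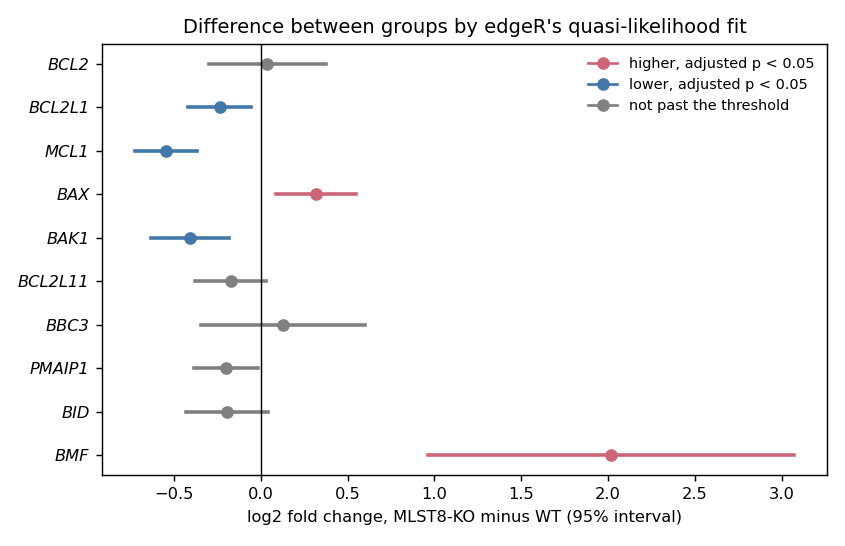
Log2 fold change of MLST8-KO against WT for the 10 genes, with the 95% interval from edgeR's quasi-likelihood fit on 3 samples per group, coloured by call. MCL1, BAK1 and BCL2L1 lie below 0 and BAX and BMF above, and BMF has the widest interval, 0.96 to 3.07.

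**Figure D3:**
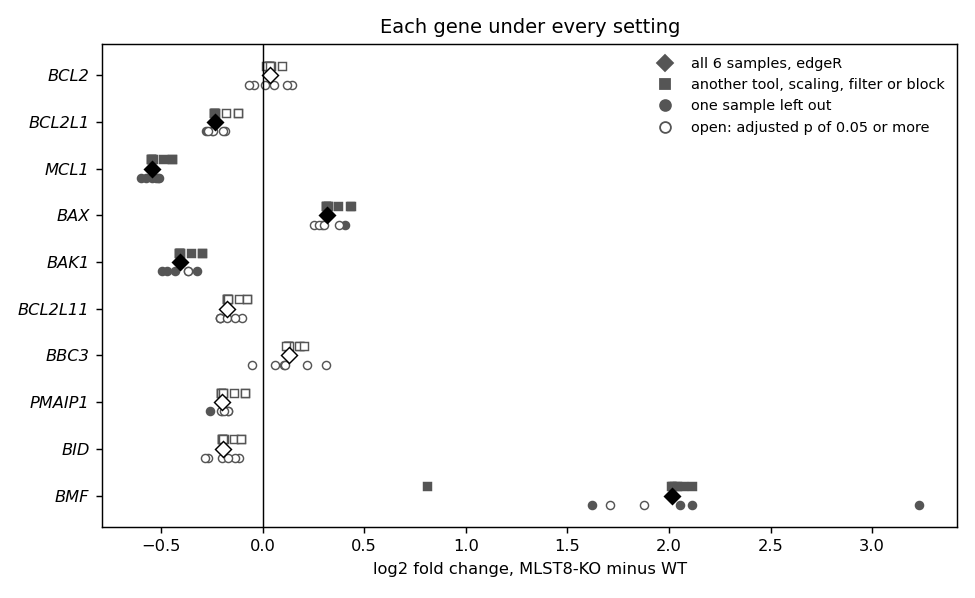
Log2 fold change of each gene in the fit to all 6 samples (diamonds), under other tools, scalings, filters or the replicate block (squares) and with 1 sample left out (circles), where open symbols mark an adjusted p of 0.05 or more. The MCL1 symbols are all filled and lie between -0.60 and -0.45, whereas those of BAX and BCL2L1 are mostly open once a sample is left out.

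Because CPM does not account for transcript length, levels between genes were compared in the deposited TPM. These values carry no TMM scaling. The median log2 fold change of all genes tested was 0.092 with limma on log2(TPM + 1), against 0.0045 in edgeR's fit. Differences between groups in TPM, in its sums and in shares of it therefore need not equal those in CPM. MCL1 led in both groups, at 306 ± 21.3 TPM in WT and 224 ± 7.62 TPM in MLST8-KO cells (SD, n = 3 each). In WT cells it was followed by BCL2L1 (109 ± 4.61 TPM) and BAK1 (106 ± 8.84 TPM), whose ranges overlapped, and then by BAX (75.9 ± 10.3 TPM). PMAIP1 (60.2 ± 4.12 TPM) and BID (50.6 ± 5.62 TPM) overlapped, and BCL2L11 stood alone at 19.0 ± 2.02 TPM. BBC3 (4.93 ± 0.499 TPM) and BCL2 (3.87 ± 0.559 TPM) overlapped near the bottom, and BMF was lowest at 0.27 ± 0.262 TPM.

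In MLST8-KO cells the order changed at the effectors. BAX was at 102 ± 5.15 TPM, level with BCL2L1 at 99.6 ± 3.93 TPM, and BAK1 was at 86.1 ± 6.31 TPM. BAX was below BAK1 in each of the 3 WT samples and above it in each of the 3 MLST8-KO samples. The lower members kept their WT order, with PMAIP1 at 56.6 ± 2.33 TPM, BID at 46.9 ± 4.32 TPM, BCL2L11 at 17.9 ± 1.13 TPM, BBC3 at 5.79 ± 1.39 TPM, BCL2 at 3.91 ± 0.373 TPM and BMF at 1.2 ± 0.234 TPM.

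Summed by role over the 10 members only, survival transcripts were at 391, 440.1 and 424 TPM in WT samples and 315, 337 and 330.4 TPM in MLST8-KO samples. MCL1 made up 72.6%, 74.2% and 72.5% of that sum in WT samples and 68.4%, 68.3% and 68.5% in MLST8-KO samples, and BCL2 made up at most 1.38% in any sample. The effector sum was 185, 179 and 182 TPM in WT samples and 187, 179.8 and 198 TPM in MLST8-KO samples, so the groups overlapped. Within it the share of BAX was 47.0%, 41.4% and 36.6% in WT samples and 56.5%, 53.5% and 52.9% in MLST8-KO samples. These are descriptions of the TPM values, without a test. The sums and ratios leave out family genes outside the 10 members. Among those, mean TPM in WT and MLST8-KO cells was 44.6 and 58.25 for BAD, 25.2 and 24.3 for BCL2L2, and 21.7 and 27.0 for BOK.

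The BH3-only sum was 135, 141 and 129 TPM in WT samples and 127, 129 and 129 TPM in MLST8-KO samples. PMAIP1 and BID together supplied most of it in every sample, and BMF at most 1.16%, so the gene with the largest log2 fold change added little transcript. The ratio of effector to survival TPM was 0.472, 0.406 and 0.430 in WT samples and 0.594, 0.533 and 0.599 in MLST8-KO samples. The ratio of BH3-only to survival TPM was 0.345, 0.320 and 0.305 in WT samples and 0.402, 0.384 and 0.391 in MLST8-KO samples. Both ratios were higher in every MLST8-KO sample than in any WT sample, and the survival sum in the denominator was lower in each of them.

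**Figure D4:**
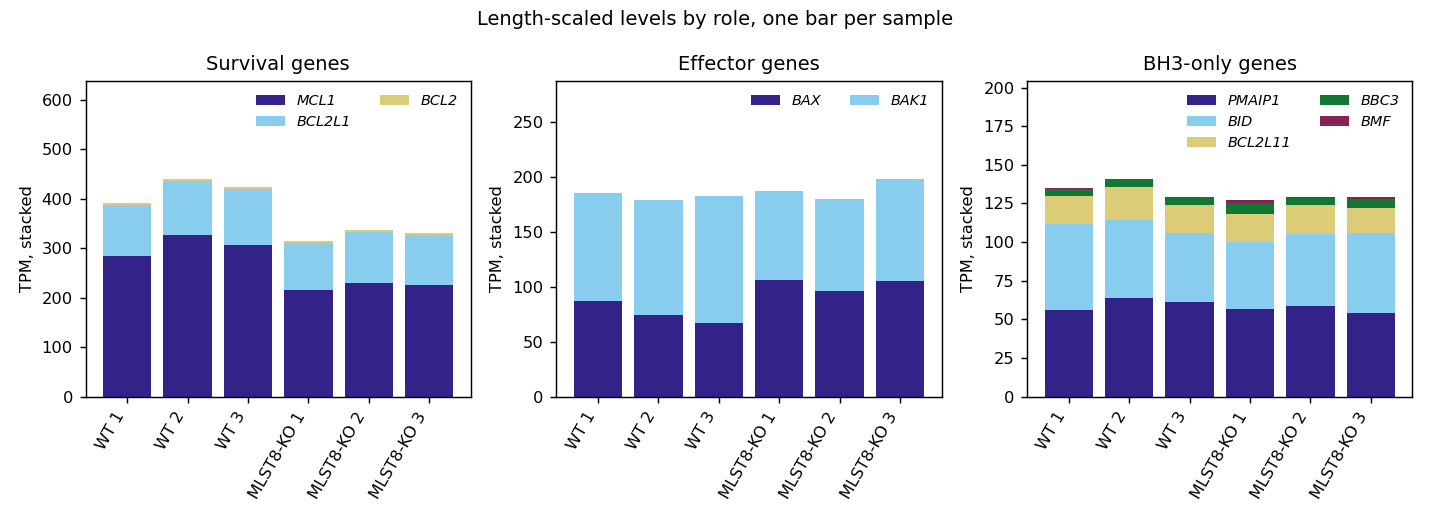
Stacked TPM of the survival, effector and BH3-only genes among the 10 members in each sample, on linear axes from 0 that differ between panels. The survival bars are lower in the 3 MLST8-KO samples (315 to 337 TPM against 391 to 440.1 TPM), the effector bars overlap in height while their BAX part is larger, and BMF is barely visible.

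Regulatory sequence was examined around the start sites in RefSeq's promoter windows of 300 bases on GRCh38.p14, which reach past the start. Windows were matched for 9 of the 10 members, and MCL1 was not matched. The forkhead motif GTAAACA, bound by FOXO factors, was searched on both strands because FOXO factors lie downstream of mTORC2 and AKT. Of the 35116 windows in the table, 3.42% held it, and among the members only the window of BCL2L11 did. The E-box CACGTG, bound by MYC and related factors and identical on both strands, was in 7.26% of windows. BAX held 4 copies in its single window, a number that 5 windows in the table, its own included, reached or exceeded, while BBC3 held 1 and BID held 1 in each of 2 overlapping windows among its 5. The parts upstream of the start are shown for these 2 genes, with the motif in capitals, at chr19:48954625-48954874 for BAX and chr2:111120664-111120913 for BCL2L11, both on the plus strand.
BAX: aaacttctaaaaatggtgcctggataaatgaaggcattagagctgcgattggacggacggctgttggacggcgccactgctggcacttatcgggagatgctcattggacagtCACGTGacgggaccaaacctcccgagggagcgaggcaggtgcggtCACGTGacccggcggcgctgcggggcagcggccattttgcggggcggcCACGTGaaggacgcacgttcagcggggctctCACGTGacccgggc
BCL2L11: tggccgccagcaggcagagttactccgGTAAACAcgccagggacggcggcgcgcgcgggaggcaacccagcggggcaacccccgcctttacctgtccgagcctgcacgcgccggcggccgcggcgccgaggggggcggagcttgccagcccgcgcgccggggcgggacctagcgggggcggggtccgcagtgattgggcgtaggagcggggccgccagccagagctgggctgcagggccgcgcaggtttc

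A match describes these letters only. On the transcript side, FOXO1 rose (log2 fold change 0.67, adjusted p = 0.0441 by edgeR, a call lost without any 1 sample except WT replicate 1), FOXO3 was at 0.0055 (adjusted p = 0.964 by edgeR) and BCL2L11 was at -0.17, not called. MYC, whose product binds E-boxes, was at -0.24 (adjusted p = 0.0918 by edgeR), and BAX, called, was at 0.32. Whether FOXO or MYC proteins act on these genes in these cells was not tested.

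The wider death pathway was read from 5 lists of 63 genes, of which 61 were listed in the table and 57 were tested. In all, 8 were higher and 11 lower, 33.3% together, against the 32.0% of all genes tested, and their median log2 fold change was -0.027. The share called among these genes was thus close to the background. Without MLST8-KO replicate 1 the counts were 3 higher and 4 lower.

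Among 10 tested of 14 other BCL2 family genes, 1 was higher and 1 lower. HRK, a further BH3-only gene, rose by 1.57 on the log2 scale (adjusted p = 0.00854 by edgeR), from 10, 7 and 6 estimated counts in WT samples to 29, 27 and 19 in MLST8-KO samples. It was called in every fit that left out a sample. BNIP3, a mitochondrial BH3-like protein of hypoxia and mitophagy, fell by 0.34 (adjusted p = 0.0413 by edgeR), a call lost without any 1 sample except WT replicate 1 (adjusted p = 0.065 to 0.168) and with upper quartile scaling and both limma fits (adjusted p = 0.0741 to 0.142). BCL2A1, BCL2L10, BCL2L14 and BCL2L15 had at most 4 estimated counts in any sample and were not tested, and BCL2L2 was at -0.16, not called.

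Downstream of the pore, 1 of 15 apoptosome, caspase and mitochondrial genes was higher and 3 were lower. CYCS, which encodes cytochrome c, fell by 0.61 on the log2 scale (adjusted p = 0.00342 by edgeR) and VDAC2, the outer membrane channel that recruits BAK, fell by 0.53 (adjusted p = 0.00281 by edgeR). Both were called in every fit that left out a sample. VDAC1 fell by 0.22 (adjusted p = 0.0484), and CASP6, an executioner caspase, rose by 0.46 (adjusted p = 0.038, both by edgeR). VDAC1 lost its call without any 1 sample except WT replicate 3 (adjusted p = 0.0813 to 0.168), and with upper quartile scaling, no filter and both limma fits (adjusted p = 0.0601 to 0.307). CASP6 lost its call without WT replicate 1 or 3 or MLST8-KO replicate 1 or 2 (adjusted p = 0.0694 to 0.141). APAF1, the apoptosome scaffold, was at 0.51 and not called (adjusted p = 0.0906 by edgeR).

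Of 5 inhibitor of apoptosis genes tested, BIRC3, an NF-kB target, was lower (log2 fold change -0.95, adjusted p = 0.0406 by edgeR). It was at 3.26 ± 1.32 CPM in WT and 1.67 ± 0.128 CPM in MLST8-KO cells, and the call was lost without any 1 sample except WT replicate 1 (adjusted p = 0.0941 to 0.134) and in both limma fits (-0.28 and -0.57, adjusted p = 0.15 and 0.16). The abundant BIRC6 was at -0.050, a sign that turned under upper quartile scaling (0.0050), limma on TPM (0.058 and 0.062) and without MLST8-KO replicate 3 (0.031), and BIRC2 was at 0.066, neither called.

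Of 9 death receptor and adaptor genes tested, 1 was higher and 3 were lower. TNFRSF10B, the TRAIL receptor DR5, fell by 0.96 on the log2 scale (adjusted p = 0.00281 by edgeR), from 70.8 ± 13.6 to 36.5 ± 2.31 CPM (SD, n = 3 each), and was called in every fit that left out a sample. TNFRSF10A, the receptor DR4, was lower (log2 fold change -0.43, adjusted p = 0.0488 by edgeR) but lost its call without any 1 sample except WT replicate 1 (adjusted p = 0.103 to 0.164), and also with DESeq2, upper quartile scaling, no filter and both limma fits (adjusted p = 0.0525 to 0.0964). FADD, the adaptor that recruits caspase-8, was also at -0.43 (adjusted p = 0.0218 by edgeR), and TRADD rose by 0.57 (adjusted p = 0.0123 by edgeR). FADD lost its call without WT replicate 2 or MLST8-KO replicate 1 or 2 (adjusted p = 0.0585 to 0.0909) and in both limma fits (adjusted p = 0.0508 and 0.0504), and TRADD without WT replicate 2 (0.0544) or MLST8-KO replicate 1 (0.0598).

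Of 18 transcription and turnover regulators of the family, 5 were higher and 3 lower. E2F1, a cell cycle factor, rose by 1.10 (adjusted p = 0.00355 by edgeR) and TRIB3, a stress-induced pseudokinase of the ATF4 pathway, fell by 1.06 (adjusted p = 0.00586 by edgeR). TP73, a transcription factor, rose by 0.66 (adjusted p = 0.00899 by edgeR), and all 3 were called in every fit that left out a sample. Among ubiquitin ligase genes of the list whose products act on MCL1 protein, HUWE1, known as MULE, rose by 0.35 (adjusted p = 0.0165 by edgeR), MARCHF5 fell by 0.31 (adjusted p = 0.0177 by edgeR), FBXW7 fell by 0.35 (adjusted p = 0.0327 by edgeR) and BTRC was at 0.099, not called. HUWE1 and MARCHF5 lost their call without WT replicate 2 or MLST8-KO replicate 1 or 2, with adjusted p-values of 0.0609 to 0.0664 for HUWE1 and 0.0572 to 0.0728 for MARCHF5. FBXW7 lost its call without any 1 sample except WT replicate 1 (adjusted p = 0.0607 to 0.108) and with upper quartile scaling and both limma fits (adjusted p = 0.0593 to 0.184). FOXO1 and TP63 were the other regulators called, at 0.67 and 0.47. The call of FOXO1 was lost without any 1 sample except WT replicate 1 (adjusted p = 0.0571 to 0.158 by edgeR), and it was at 0.66 (adjusted p = 0.107) without MLST8-KO replicate 1. That of TP63 was lost without WT replicate 2 or MLST8-KO replicate 1 or 2 (adjusted p = 0.0715 to 0.0777 by edgeR).

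**Figure D5:**
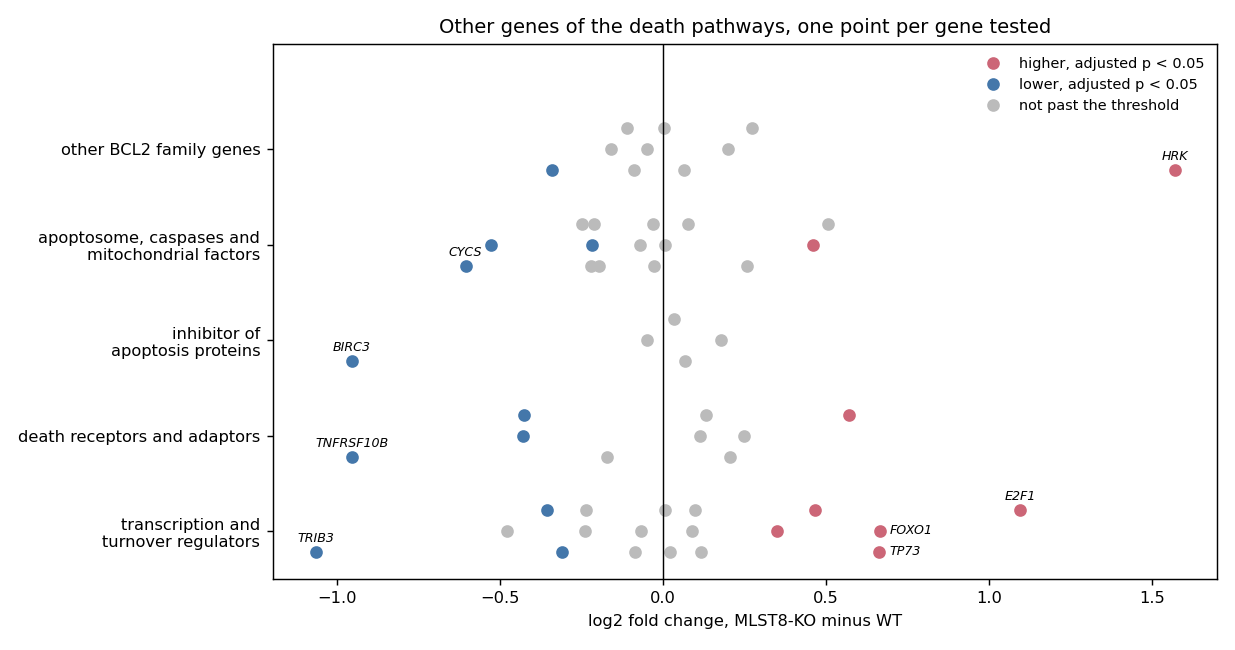
Log2 fold change of MLST8-KO against WT for the 57 other death pathway genes tested, 1 point per gene in rows by list, coloured by edgeR call (the vertical scatter within a row has no meaning). HRK is the farthest to the right at 1.57 and TRIB3 the farthest to the left at -1.06, and 38 points are grey.

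The genes whose CPM followed the called members most closely were found by the root mean square difference of centred log2(CPM + 0.5) over the 6 samples. For MCL1 they were RNF103 (difference 0.024), NT5DC3 (0.025) and BCLAF1 (0.034). For BAK1 they were TRIM41 (0.026), UBXN6 (0.027) and TRIM27 (0.028). For BMF they were ARHGEF37 (0.124), ID4 (0.151) and GJB6 (0.158), a looser likeness than for the other members, at the lower counts of BMF.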

How the data were processed

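RNA-seq of HCC2814 cells covered 3 WT and 3 MLST8-KO samples. The authors trimmed the data to clean reads, used HISAT for alignment to the genome (GRCh38.p12) and Bowtie2 for alignment to genes, and deposited a TPM, an FPKM and an estimated count for each gene and sample. The program that made the estimates and the library strandedness are not given in the sources used here. The labels and the paper name different RNA extraction kits. A table of the authors' own fold changes and p-values was not used. Of the estimated counts, 12.4% were not whole and were rounded. The 25 symbols that had been turned into dates were restored.

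Groups were compared in R 4.3.3 by edgeR 4.0.16 (filterByExpr, TMM, glmQLFit and then glmQLFTest), with no replicate block and Benjamini-Hochberg adjustment over 12951 genes. Standard errors and intervals came from the same fit and cover the spread between these samples. DESeq2 1.42.0, limma 3.58.1 on log2(TPM + 1) and log2(TPM + 0.1), other scalings and filters, a block on replicate number and fits short of 1 sample were alternatives. On simulated counts for 12951 genes with 200 changed by a log2 fold change of 1, 90% were called and 7.69% of calls were unchanged genes. Every member except BMF differed by less than that, and far more genes were called in the data. The simulated share therefore does not describe how often changes of the members' size would be called. FPKM values deposited by the authors were not tested.

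The members, lists and alternatives were chosen with earlier results of these data known. Named were the 10 members, MLST8, up to 5 called genes per list with the smallest adjusted p (where under 2 were called, the 2 with the highest counts) and the 3 genes most like each of the 3 members with the smallest adjusted p; other genes were named after their values were seen. The alternatives for FOXO1, TP63 and FBXW7 were added after seeing the data. Loci and coding sequences are from GENCODE 29, and stretches of 50 bases were compared between its transcripts. Figures were drawn with matplotlib 3.10.9. Some items are not reported here.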

Additional observations from a re-analysis of the deposited data

How the results depend on the processing

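Of 139 refits of single members, 116 kept both direction and side of the threshold, 19 lost the call, 1 gained it and 3 turned sign. For members not called, keeping the side means staying uncalled, so all losses fell on called members. BCL2L1 lost its call in 4 of 8 other settings and 5 of 6 fits short of 1 sample. For BAX this was 1 of 8 and 5 of 6. BAK1 and BMF each lost it in 2 of 6 fits short of 1 sample. MCL1 and MLST8 were called in every refit. BCL2L1 was not called with upper quartile scaling (-0.18), without the filter (-0.24) or with limma on log2(TPM + 1) or log2(TPM + 0.1) (-0.12 each), nor BAX with DESeq2 (0.31); the limma fits shifted the median of all genes by 0.092 and 0.10, and relative to the second shift MCL1 was at -0.55, BAK1 at -0.40, BCL2L1 at -0.23, BAX at 0.33 and BMF at 1.92. With limma on log2(TPM + 1), where a pseudocount weighs on low genes, BMF was at 0.81. Members higher numbered 1 with DESeq2 and with at least 10 counts in every sample, a filter that BMF and HRK failed, so they have no value there. Genes lower in all numbered 1134 and 1132 with limma, and pathway genes lower 7 with upper quartile scaling and 5 in either limma fit. BIRC6 turned sign with upper quartile scaling (0.0050) and limma (0.058 and 0.062). The cause of these changes was not tested. Leaving out 1 sample gave 971 to 2692 genes higher and 850 to 2651 lower, 0 to 2 members higher and 1 to 4 lower, and 3 to 8 pathway genes higher and 4 to 12 lower. The members ranged from -0.066 to 0.15 (BCL2, at -0.044 without WT replicate 1), -0.28 to -0.19 (BCL2L1), 0.26 to 0.40 (BAX), -0.49 to -0.32 (BAK1), -0.21 to -0.10 (BCL2L11), -0.28 to -0.12 (BID), -0.0535 to 0.31 (BBC3), -0.26 to -0.17 (PMAIP1) and 1.62 to 3.23 (BMF), and BIRC6 from -0.15 to 0.031. Correlations of deviations between same-numbered samples were 0.105, 0.0565 and 0.140, and each sample correlated best with its own number. The main fit did not pair the samples, as the paper's methods name no pairing. With 3 samples per group these correlations cannot settle whether the numbers pair them. The replicate block called 2261 genes higher and 2157 lower, changed no member's call (MCL1 -0.54) and lost the calls of VDAC1 (-0.22, adjusted p = 0.0617 by edgeR) and TNFRSF10A (-0.42, adjusted p = 0.0558 by edgeR). Depth limits the low genes: in WT samples BMF had 3 to 21 estimated counts and HRK 6 to 10, and BIRC3 and BBC3 were also low. The errors cover the spread of 3 samples per group only.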
